A study of Mus musculus with 9 samples.

Results

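Surface and secreted proteins of blood capillaries and venules are encoded by the 10 genes described here, which were taken by symbol from a table of 24321 genes measured in mouse meningeal lymphatic endothelial cells (MLECs). All 10 symbols were found. The genes are Cd34, Podxl and Emcn, which encode sialomucins, Plvap, which encodes the protein of endothelial diaphragms, Cd93 and Clec14a, which encode lectin-like receptors, Cd300lg and Robo4, which encode immunoglobulin-domain receptors, Esm1, which encodes a secreted proteoglycan, and Ackr1, which encodes an atypical chemokine receptor. In MLECs of tumor-bearing mice the mean level of Cd34 was 65.9 times, that of Emcn 11.2 times, that of Clec14a 6.75 times and that of Plvap 2.48 times the control mean (6 libraries against 3), and these 4 passed the test across all genes. Without control replicate 2, the control library highest in both genes, Cd34 was 247 times and Clec14a 34.3 times the control mean. The Cd34 controls left in that ratio were low, at 2.73 and 0.37 FPKM. Without control replicate 3, Cd34 was 44.9 times and Clec14a 4.62 times the control mean. The calls of Clec14a and Plvap turned on single libraries, and none of the 4 was called when sequencing depth was a covariate. Ackr1 was listed at 0 in control MLECs and in 2 of 3 B16 libraries and was present in every GL261 library. In the same joined test Ackr1, Cd300lg, Robo4, Esm1, Podxl and Cd93 did not pass.

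The study asked how intracranial tumors change the transcriptome of MLECs. Male mice of the C57BL/6 strain were injected at 7 to 8 weeks of age with GL261 glioma cells, with B16 melanoma cells or, as the control, with the same volume of PBS, and no other allele or agent is named. Both tumor lines are transplantable and syngeneic to this strain. The cisterna magna is the site of injection in the sample labels and the subdural space in the study's methods. By the sample annotation, meninges were taken after about 3 weeks from GL261 mice and about 2 weeks from B16 mice, with no time for controls. The study's results give 2 weeks for all groups and its methods 2 to 3 weeks. Every label gives an age of 10 weeks. If the annotated times hold, tumor type and time since injection cannot be told apart. CD31+ CD45- LYVE-1+ cells were sorted according to the labels and the methods (PDPN+ in place of LYVE-1+ where the study describes its results), and 10 cells made up each Smart-seq2 library. There were 3 libraries in each of the 3 groups, each from a pool of 6 mice, so no value belongs to a single mouse.

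Blood capillaries are lined by a thin endothelium whose surface carries a coat of mucin-like glycoproteins, of which CD34, podocalyxin and endomucin are the best known in endothelium. In fenestrated capillaries, and over endothelial caveolae, PLVAP builds the radial fibrils of the diaphragm that spans each opening, and it is absent from mature capillaries with a blood-brain barrier. Lymphatic endothelium lacks such fenestrae. It is not devoid of these proteins, since PLVAP lines the diaphragms of lymph node sinuses and CD34 has been described on some tumor lymphatics.

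The following 4 genes are shown first by the sequence before their transcription start, because they are the members that passed the test below in at least 1 comparison and that have an entry in the RefSeq promoter table of build GRCm38.p6. The table gave 6 of the 10 genes (Cd34, Emcn, Ackr1, Robo4, Clec14a and Esm1). Podxl, Plvap, Cd93 and Cd300lg had no entry. Each window is the 180 bases up to the base before the start, written 5′ to 3′ on the strand of the gene, and capitals mark each match to CAGGAAG, a core motif of ETS factors, on either strand.
Cd34, GRCm38.p6 chr1:194938641-194938820, plus strand: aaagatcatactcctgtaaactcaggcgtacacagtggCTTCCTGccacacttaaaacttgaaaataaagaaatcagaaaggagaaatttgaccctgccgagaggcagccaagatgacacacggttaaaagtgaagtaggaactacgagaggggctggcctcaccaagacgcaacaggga
Emcn, GRCm38.p6 chr3:137340898-137341077, plus strand: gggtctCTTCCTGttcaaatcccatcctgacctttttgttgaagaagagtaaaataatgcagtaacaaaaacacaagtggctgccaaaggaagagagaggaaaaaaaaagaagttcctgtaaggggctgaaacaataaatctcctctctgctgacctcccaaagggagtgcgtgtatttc
Clec14a, GRCm38.p6 chr12:58269259-58269438, minus strand: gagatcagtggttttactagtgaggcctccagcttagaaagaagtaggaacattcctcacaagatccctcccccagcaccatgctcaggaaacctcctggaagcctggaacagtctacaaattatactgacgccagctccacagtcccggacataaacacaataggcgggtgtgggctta
Ackr1, GRCm38.p6 chr1:173333504-173333683, minus strand: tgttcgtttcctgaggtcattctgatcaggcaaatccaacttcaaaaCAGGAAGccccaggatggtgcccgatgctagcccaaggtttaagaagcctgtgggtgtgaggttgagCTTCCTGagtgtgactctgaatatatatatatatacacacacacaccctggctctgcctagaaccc

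The motif was searched in the whole window of the table, from 250 bases before to 50 bases after the start, on both strands. It was present in Cd34, with its first base at position -142 from the start, in Emcn at -174, in Robo4 at -50 and at 2 places in Ackr1, at -133 and -66. That is 4 of the 6 windows, while 13.3% of all 32851 windows of the table held it. Clec14a and Esm1 had no match. The TATA box, searched as TATAAA on both strands, was in 0 of the 6 windows and in 13.6% of all windows. A FOX motif, with the letters TGTTTAC, was in 0 of the 6 and in 3.65% of all. A SOX motif written as ACAATG was likewise in 0 of the 6 windows, beside 12.6% of all, and the GC box with the letters GGGCGG in 0 beside 35.7%. No match overlapped another. A match describes letters only. Robo4, which has the motif, was not among the genes that passed the test.

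Expression was deposited as FPKM, fragments scaled to transcript length and to library size, which allows genes to be compared within a library. The number of genes above 0 FPKM ran from 7303 to 8688 in the controls and from 8736 to 10852 with a tumor, without overlap. The table holds no read counts, so the precision that depth gives each value is unknown from it. A value of 0 may be a transcript lost among 10 cells, since Tbp, a transcription factor that every cell uses, was also listed at 0 in 2 control libraries. Of the markers fixed for lymphatic endothelium, all 9 were listed and none was at 0 throughout any group. This is a low bar, since Ccl21a had only 0.138 to 0.408 FPKM in tumor-associated libraries. None of 12 blood endothelial markers outside the 10 genes was at 0 throughout either tumor group, so the bar does not separate these identities. The summed level of the lymphatic markers reached 13419 to 17005 FPKM in the controls, but 1075 to 2941 with GL261 and 2133 to 6698 with B16. In the controls most of this sum was 1 gene, Ccl21c, at 7384, 13803 and 9750 FPKM in replicates 1 to 3. Ccl21c had 810, 142 and 646 FPKM with GL261 and 4187, 1204 and 2652 with B16.

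Differences were tested with limma on log2(FPKM + 1) over the 9955 genes with at least 1 FPKM in at least 3 libraries, and a gene passed at a Benjamini-Hochberg adjusted p below 0.05. All 10 members were above this filter. Ackr1 met it only through 4 tumor-associated libraries. The members were chosen with earlier results of these data known, so the shares of all tested genes stand beside them as a description. In tumor-associated against control MLECs, 4 of the 10 members were higher (Cd34, Emcn, Plvap and Clec14a), where 2.9% of all tested genes were higher. None was lower, where 1.02% of all tested genes were lower. The median difference of the members was 1.82 on the log2 scale, or 1.81 without Ackr1, beside 0.20 for all tested genes. In 3 of them, Cd34, Emcn and Plvap, the lowest tumor-associated library lay above the highest control library, where 6.08% of all tested genes did so. By the measure named in the study's methods, a ROC power above 0.4, 7 members, Ackr1 among them, were higher, beside 31% of all tested genes. By this measure 1 member (Cd300lg) was lower, beside 20.6%. The measure was computed here on FPKM as deposited. The study reported far fewer genes at this threshold, so these counts are not its list.

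**Figure D1:**
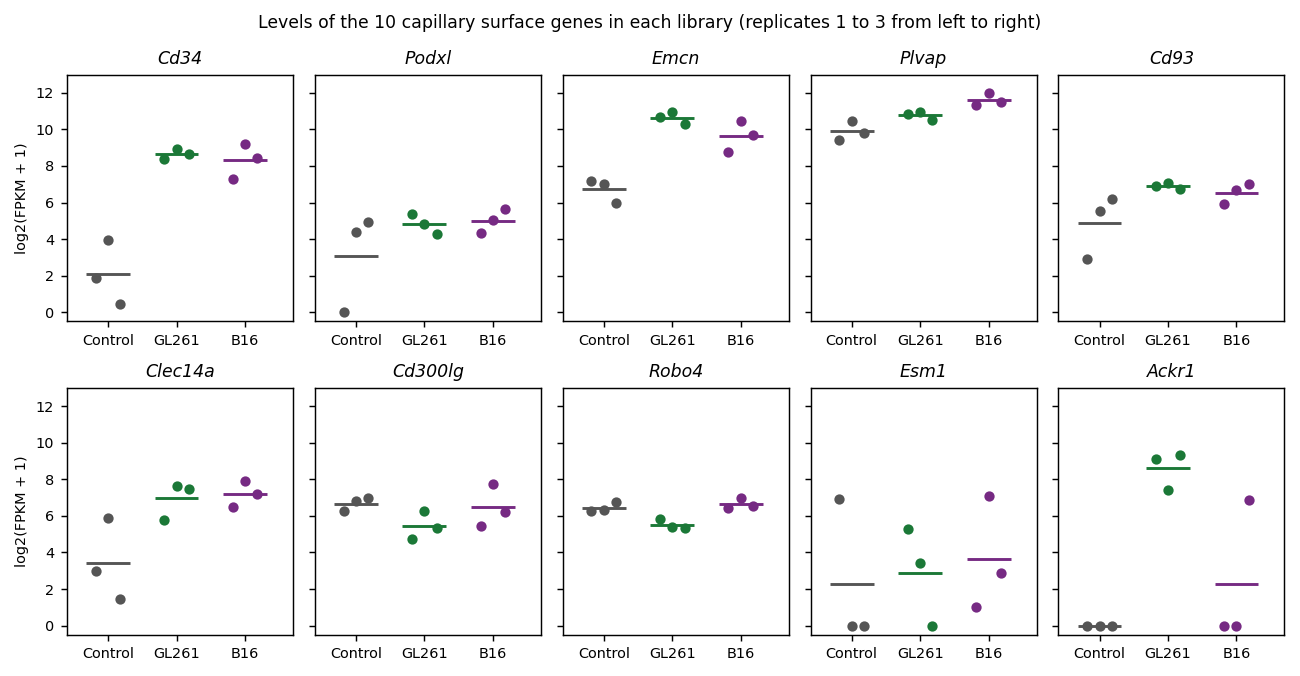
Level of each gene as log2(FPKM + 1) on the vertical axis in the 3 control, 3 GL261 and 3 B16 libraries, with 1 point per library and a horizontal bar at the group mean. Cd34 and Emcn lie apart between control and both tumor groups, and Ackr1 is at 0 in every control library. Robo4 lies lowest in GL261, and Cd300lg has its lowest mean there, with libraries that overlap B16.

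Of the sialomucins, Cd34 differed most between tumor-associated and control MLECs, and in the joined comparison its difference exceeded those of the other 9 genes. With a pseudocount of 0.1 in place of 1, Ackr1, at 0 in all controls, exceeded it (7.65 beside 7.05 for Cd34). CD34 marks blood capillaries and hematopoietic progenitors. Its levels were 2.73, 14.3 and 0.37 FPKM in control replicates 1 to 3, 330, 478 and 396 FPKM in GL261 and 153, 592 and 349 FPKM in B16. The lowest tumor-associated library, B16 replicate 1, was still 10.7 times the highest control library. Control MLECs held 5.81 ± 7.48 FPKM (SD, n = 3), GL261 MLECs 402 ± 74.4 (SD, n = 3) and B16 MLECs 365 ± 220 (SD, n = 3). The difference between tumor-associated and control MLECs was 6.38 on the log2(FPKM + 1) scale (SE 0.64, 95% confidence interval 4.99 to 7.77, limma adjusted p = 0.000166), and an exact two-sided permutation test over the libraries gave p = 0.0119, the smallest that 84 divisions allow. The gene moved from a rank between the top 39.1% and 73.9% of tested genes in the controls to the top 2.13% to 6.56% with a tumor.

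Emcn, which encodes endomucin, a mucin of capillary and venous endothelium that hinders leukocyte adhesion, followed the same pattern from a higher base. Control libraries had 145, 129 and 61.4 FPKM, GL261 libraries 1625, 1983 and 1249 and B16 libraries 435, 1392 and 817. No library of either tumor group reached down to the control range, and the nearest, B16 replicate 1, was 3 times the highest control value. Mean levels were 112 ± 44.4 FPKM in control MLECs, 1619 ± 367 with GL261 and 881 ± 482 with B16 (SD, n = 3 each). Emcn rose by 3.41 on the log2(FPKM + 1) scale (SE 0.44, 95% confidence interval 2.46 to 4.35, limma adjusted p = 0.00079; exact permutation p = 0.0119).

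Podxl, which encodes podocalyxin, a sialomucin of podocytes and of the luminal endothelial surface, did not pass. It was listed at 0, 20.1 and 29.2 FPKM in control MLECs, 40.8, 27.9 and 18.5 with GL261 and 19.1, 31.6 and 48.5 with B16. Apart from the control library at 0, the ranges of the groups lay over one another. The difference was 1.81 on the log2(FPKM + 1) scale (95% confidence interval -0.15 to 3.77, limma adjusted p = 0.302), and it was 0.26 when control replicate 1 was left out.

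Plvap was the most abundant member in each group. It had 686, 1390 and 905 FPKM in control MLECs, 1813, 2004 and 1462 with GL261 and 2599, 4037 and 2887 with B16, which placed it in the top 0.151% to 1.59% of tested genes in every library. Both tumor groups lay above control, but the lowest of them, GL261 replicate 3, was only 1.05 times the highest control library. Means were 994 ± 361 FPKM in control MLECs, 1760 ± 275 with GL261 and 3174 ± 761 with B16 (SD, n = 3 each). The joined difference of 1.29 on the log2(FPKM + 1) scale (SE 0.31, 95% confidence interval 0.63 to 1.95, limma adjusted p = 0.0338) passed with little room. It was lost in 11 of 18 alternatives, among them rescaling each library to a common sum (1.06, adjusted p = 0.101) and leaving out any of 6 single libraries: control replicate 1 or 3, GL261 replicate 2 or any B16 replicate (adjusted p 0.0507 to 0.138, limma).

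The group XIV lectin-like receptors are single-pass endothelial proteins with roles in cell adhesion and vessel sprouting. Clec14a had 7.01, 57.9 and 1.72 FPKM in control MLECs, 53.2, 201 and 174 with GL261 and 90, 235 and 146 with B16. Control replicate 2 overlapped GL261 replicate 1, and the other tumor-associated libraries were above every control library. Levels averaged 22.2 ± 31 FPKM in control (SD, n = 3) and 150 ± 68.5 in tumor-associated MLECs (SD, n = 6). Clec14a rose by 3.64 on the log2(FPKM + 1) scale (SE 0.79, 95% confidence interval 1.93 to 5.34, limma adjusted p = 0.0227; exact permutation p = 0.0238). The call was lost without control replicate 1, control replicate 3 or GL261 replicate 2 (limma adjusted p = 0.0781, 0.079 and 0.0533).

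Its relative Cd93 had 6.68, 45.1 and 72.7 FPKM in control MLECs, 119, 135 and 106 with GL261 and 58.9, 103 and 128 with B16. Every GL261 library exceeded the controls, while B16 replicate 1 fell below control replicate 3. The difference of 1.84 on the log2(FPKM + 1) scale (SE 0.60, 95% confidence interval 0.53 to 3.14) did not pass with all libraries (limma adjusted p = 0.114). The value turned on the control libraries: it passed when control replicate 3 was left out (2.49, limma adjusted p = 0.0473) and was 0.86 when control replicate 1 was left out (limma adjusted p = 0.299).

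Neither immunoglobulin-domain receptor was higher in the joined comparison. Cd300lg encodes nepmucin, a mucin-like receptor of capillaries and high endothelial venules. It had 75.7, 110 and 123 FPKM in control MLECs, 25.4, 75.4 and 39.4 with GL261 and 42.2, 215 and 73.9 with B16. GL261 libraries were below all control libraries, and the B16 libraries spanned them. The joined difference was -0.71 (95% confidence interval -1.94 to 0.51, limma adjusted p = 0.518).

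Robo4 encodes an endothelial roundabout receptor that stabilizes vessels against VEGF signals. Its levels were 76.6, 77.7 and 106 FPKM in control MLECs, 55.4, 41.3 and 39 with GL261 and 84.9, 123 and 92.1 with B16. Its control libraries lay close together, at 86.9 ± 16.9 FPKM (SD, n = 3). The GL261 libraries, at 45.2 ± 8.86 (SD, n = 3), lay below every control and every B16 library. The joined difference was -0.36 (95% confidence interval -1.30 to 0.57, limma adjusted p = 0.698).

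Esm1, which encodes endocan, a proteoglycan secreted by endothelial tip cells, was listed at 119, 0 and 0 FPKM in control MLECs, 38.2, 9.53 and 0 with GL261 and 1.05, 133 and 6.21 with B16. High and zero values were found within each of the control and GL261 groups. The interval of its difference ran from -2.72 to 4.65 on the log2(FPKM + 1) scale (limma adjusted p = 0.811), so a change in either direction was not detectable.

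Ackr1, the receptor that binds chemokines without G-protein signaling and that marks venules, was listed at 0 in all 3 control libraries. GL261 libraries had 543, 168 and 636 FPKM. The B16 libraries were listed at 0, 0 and 114 FPKM. The gene was thus present in every GL261 library and in 1 B16 library. It passed in GL261 against control (limma adjusted p = 0.0113), though it had met the filter only through tumor-associated libraries. A fold is not given because the control group was at 0. The call was lost without GL261 replicate 1 or 3 (limma adjusted p = 0.0623 and 0.055), and also with aligned reads as a covariate. With both tumors joined Ackr1 did not pass (limma adjusted p = 0.154). It did with the mean of GL261 and B16 set against control in a fit of 3 groups (limma adjusted p = 0.0423).

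By tumor, GL261 and B16 were each set against the same 3 control libraries, so these comparisons are not independent of each other. In GL261, 3 members passed as higher (Cd34, Emcn and Ackr1), beside 2.58% of all tested genes. Ackr1, at 0 in all controls, entered the test only through tumor-associated libraries, and without it the count was 2 of 9 members. In 5 members, Ackr1 again among them, every GL261 library lay above every control library, beside 13.7% of tested genes. In 2 members, Cd300lg and Robo4, every GL261 library lay below, beside 8.84%. In B16, 3 members passed as higher (Cd34, Emcn and Plvap), beside 1.61% of all tested genes, and 4 members lay above control without overlap, beside 10.2%. Cd34 differed from control by 6.54 in GL261 (SE 0.77, limma adjusted p = 0.00126) and by 6.21 in B16 (SE 0.77, adjusted p = 0.00206). Emcn differed by 3.91 (SE 0.43, adjusted p = 0.000954) and 2.90 (SE 0.43, adjusted p = 0.0056). Plvap differed by 0.87 in GL261, which did not pass (SE 0.27, adjusted p = 0.11), and by 1.71 in B16, which did (SE 0.27, adjusted p = 0.00748). Clec14a differed by 3.52 and 3.75 and passed in neither (SE 0.96, limma adjusted p = 0.0749 and 0.0727).

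Some of these calls turned on control replicate 2, which had the highest Clec14a and Plvap of the controls. Without it, Clec14a passed in both tumors (limma adjusted p = 0.00778 in GL261 and 0.00629 in B16) and Plvap passed in GL261 (limma adjusted p = 0.0344). In GL261, Cd300lg differed by -1.23 (95% confidence interval -2.57 to 0.11, adjusted p = 0.341) and Robo4 by -0.93 (95% confidence interval -1.78 to -0.07, adjusted p = 0.252), and neither passed.

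**Figure D2:**
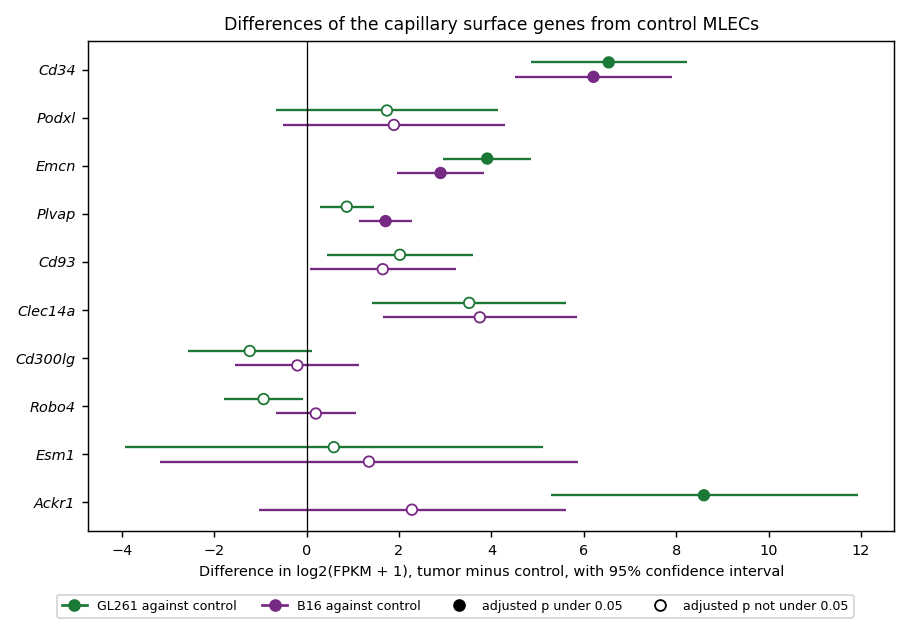
Difference from control in log2(FPKM + 1) on the horizontal axis for each gene in GL261 (green) and B16 (purple), with 95% confidence intervals from limma and 3 libraries per group. Filled points have an adjusted p under 0.05, which holds for Cd34 and Emcn in both tumors, Ackr1 in GL261 and Plvap in B16.

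The direct test between tumors called none of the 10 members, and 0.01% of all tested genes (1 gene) passed in it. By unadjusted limma p, 4 members, Ackr1 among them, were under 0.05, beside 5.5% of all tested genes. In 3 members, Ackr1, Plvap and Robo4, the tumor groups did not overlap, beside 13.8% of tested genes. Ackr1 was higher in GL261 by 6.32 on the log2(FPKM + 1) scale (95% confidence interval 2.99 to 9.64, limma adjusted p = 0.276). Leaving out B16 replicate 3, the only B16 library with Ackr1, left B16 at 0 and 0 FPKM. The pass of that fit (limma adjusted p = 0.009) followed from the library removed and adds no support. Plvap differed by -0.84, lower in GL261 (95% confidence interval -1.42 to -0.25, adjusted p = 0.584) and Robo4 differed by -1.13 (95% confidence interval -1.98 to -0.27, adjusted p = 0.685). Emcn was on average higher in GL261, by 1.01 (95% confidence interval 0.06 to 1.96, adjusted p = 0.867), with overlapping libraries. For Cd34 the difference between tumors was 0.33, with a 95% confidence interval of -1.36 to 2.01.

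The 10 genes together made up 0.168% to 0.266% of the FPKM of a control library, 0.536% to 0.577% with GL261 and 0.459% to 0.978% with B16. Their order changed as well as their sum. In control MLECs Plvap came first and was followed, without overlap of its libraries, by Emcn, Cd300lg and Robo4, which did not differ beyond their ranges. Cd93 lay below Robo4 without overlap, and Esm1, Clec14a, Podxl and Cd34 came next with overlapping ranges between neighbors, and Ackr1 was last at 0. In GL261 MLECs Plvap and Emcn overlapped at the top, Ackr1 and Cd34 came next and overlapped, and Clec14a, Cd93, Cd300lg, Robo4, Podxl and Esm1 followed. No libraries overlapped between Emcn and Ackr1, between Cd34 and Clec14a or between Cd93 and Cd300lg. In B16 MLECs only the first gap, between Plvap and Emcn, was free of overlap, and Cd34 came after Emcn.

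Within a library, Plvap supplied 61.3% to 75.4% of the members' FPKM in control and 58.8% to 74.6% in B16 MLECs, but 35.5% to 39.1% in GL261 MLECs. The ratio of Emcn to Plvap ranged from 0.0678 to 0.212 in control MLECs, from 0.167 to 0.345 with B16 and from 0.854 to 0.99 with GL261. These ratios compare genes of 1 library and do not depend on its scaling. They were set side by side after the levels had been seen and carry no test. Relative to Pecam1, the pan-endothelial CD31 used in the sort, Cd34 had a ratio of 0.00247 to 0.0492 in the controls and 0.431 to 1.5 with a tumor, Emcn 0.411 to 0.496 and 1.22 to 6.23, and Plvap 2.34 to 6.05 and 4.73 to 9.7. The ranges of Cd34 and Emcn stayed apart on this scale and those of Plvap did not.

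Markers of other cells were read beside these results. The 12 blood endothelial markers outside the 10 genes summed to 938 to 1714 FPKM in the controls, 4909 to 12932 with GL261 and 3743 to 5173 with B16, and 8 of them were higher and 1 (Aqp1) lower in tumor-associated MLECs by limma. Of these, Ly6c1 and Aplnr were listed at 0 in all control libraries. Of the 9 lymphatic markers 8 were tested, 4 were lower (Ccl21c, Flt4, Mmrn1 and Reln) and none was higher. Lyve1, which encodes the protein of the sort, had 1705, 1250 and 974 FPKM in control MLECs, 777, 660 and 1709 with GL261 and 1895, 628 and 911 with B16. Its libraries overlapped, and the difference of -0.36 did not pass (95% confidence interval -1.15 to 0.42, limma adjusted p = 0.629). Pdpn, the podoplanin gene, also overlapped and did not pass (-1.48, limma adjusted p = 0.235). Prox1 (-2.79, limma adjusted p = 0.0509) and Ccl21b (-5.48, limma adjusted p = 0.0651) did not pass either. In both of these genes every tumor-associated library lay below every control library. Flt4, which encodes the lymphatic growth factor receptor VEGFR-3, was 174, 205 and 220 FPKM in control MLECs, 40.1, 45.4 and 49 with GL261 and 106, 56.3 and 59.4 with B16. The 8 pan-endothelial markers summed to 1828 to 2420, 2071 to 2450 and 2502 to 3096 FPKM, and 1 of them, Eng, was higher. Since each library is 10 cells read together, more cells of a blood endothelial type, which the gate on LYVE-1 or PDPN is meant to remove, and more of these RNAs per cell cannot be told apart.

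**Figure D3:**
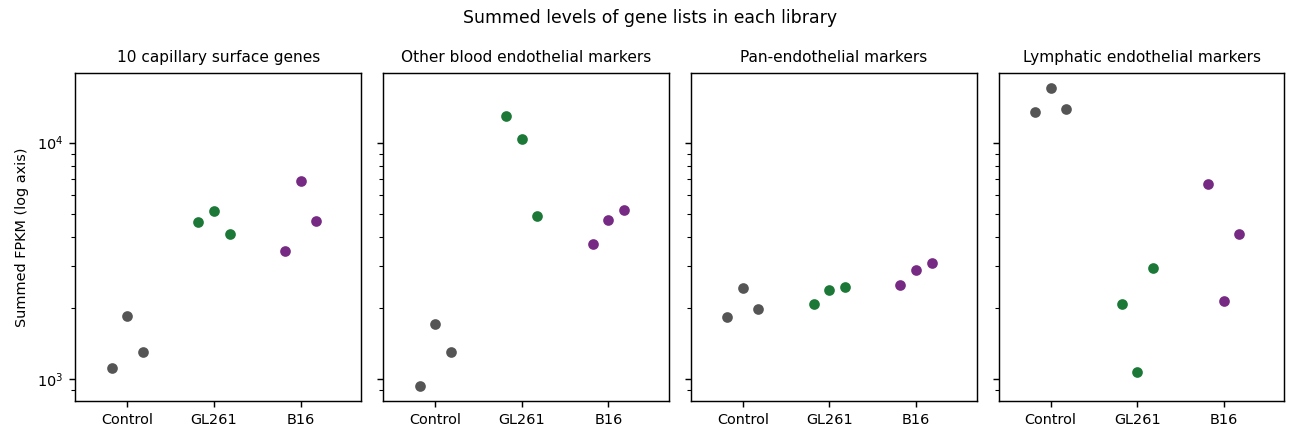
Summed FPKM on a log axis in each library for the 10 capillary surface genes, 12 other blood endothelial markers, 8 pan-endothelial markers and 9 lymphatic markers, with 1 point per library. Both blood endothelial sums lie higher in all 6 tumor-associated libraries than in control. The lymphatic sum, which is mostly Ccl21c in the controls, lies lower. The pan-endothelial sums of control and GL261 overlap.

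Markers of other lineages were present at varied levels. Ptprc, which encodes the CD45 gated out in the sort, and Cd3e were listed at 0 in all 9 libraries, and the 7 leukocyte markers summed to 43.2 to 183 FPKM in the controls, 12.9 to 349 with GL261 and 4.38 to 37.4 with B16. In GL261 replicate 2 most of that sum was Lyz2, at 324 FPKM. The 6 pericyte and smooth muscle markers summed to 170 to 627, 15.4 to 68.1 and 101 to 137 FPKM, with Acta2 at 505 FPKM in control replicate 1 and Kcnj8 at 195 and 169 FPKM in control replicates 2 and 3. These levels exceed those of several members. The 5 fibroblast markers summed to 16 to 47.5, 0.0851 to 1.3 and 0 to 3.85 FPKM, with Dcn lower in tumor-associated libraries. The 6 platelet and erythroid markers were listed at 0 in every control library and summed to 3.26 to 188 FPKM with GL261 and 17 to 64.8 with B16. The 5 melanoma markers did not exceed 4.07 FPKM in any library, and the 6 neural and glial markers did not exceed 7.45. Of 7 genes that every cell uses, 3 (Actb, Gapdh and Tbp) were higher in tumor-associated libraries, where the sum was 16685 to 21763 FPKM against 12854 to 15988 in control. The part of any of these in the 10 genes' differences was not tested.

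The number of detected genes moved with tumor status as well. When the log2 of the aligned reads per library was added to the model, none of the 10 members passed, and 9 of all tested genes did. Cd34 then differed by 4.92 (limma adjusted p = 0.0891), Emcn by 1.76 (limma adjusted p = 0.186), Plvap by 1.67 (limma adjusted p = 0.253) and Clec14a by 2.85 (limma adjusted p = 0.48). Depth and tumor status cannot be told apart in such a fit, since every control library had fewer aligned reads than every tumor-associated library. The control and tumor-associated libraries nearest in detected genes were control replicate 2, with 8688, and B16 replicate 1, with 8736. Between these 2 libraries, Cd34 was 14.3 and 153 FPKM, Emcn 129 and 435, Plvap 1390 and 2599, Clec14a 57.9 and 90, and Cd93 45.1 and 58.9, each higher in the B16 library. Podxl was 20.1 and 19.1 FPKM, Robo4 77.7 and 84.9 and Cd300lg 110 and 42.2. This pair has no replicate.

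**Figure D4:**
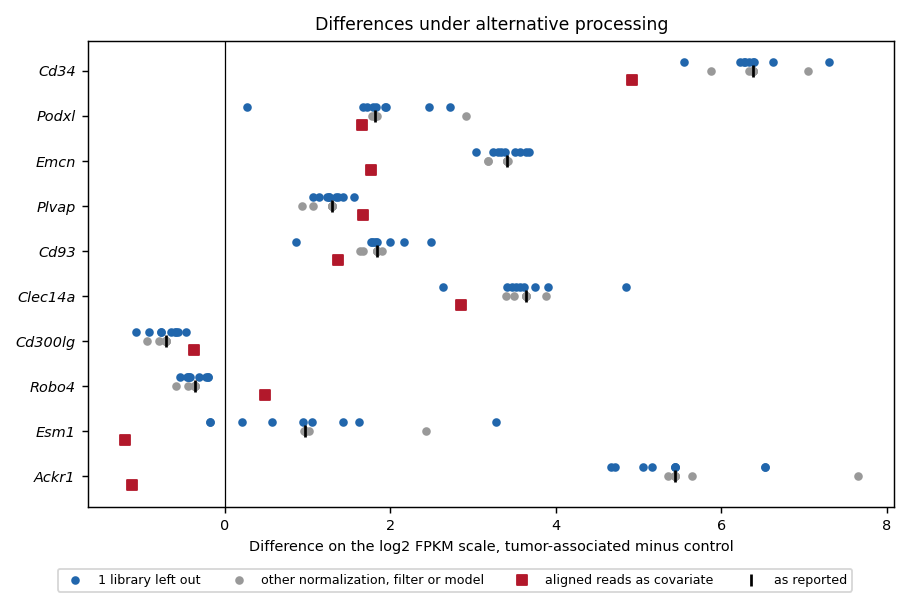
Difference between tumor-associated and control MLECs on the log2 FPKM scale for each gene as reported (black bar), with 1 library left out (blue), under other normalization, filters or models (gray) and with aligned reads as a covariate (red squares). Cd34, Podxl, Emcn, Plvap, Cd93 and Clec14a stay above 0 throughout, while Robo4, Esm1 and Ackr1 cross 0 with the covariate and Esm1 also with some libraries left out.

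Relatives and binding partners of the members were followed in 8 lists of 39 genes, of which 39 were listed and 23 tested. In tumor-associated MLECs 3 of these genes were higher and none lower, with a median difference of 0.73 beside 0.20 for all tested genes. The 3 were Igfbp7, Msn and Ackr3. Igfbp7, which encodes a secreted ligand of CD93, had 1680, 1876 and 1546 FPKM in control MLECs, 13844, 13833 and 4928 with GL261 and 5131, 9108 and 11875 with B16, without overlap. It rose by 2.40 on the log2(FPKM + 1) scale (SE 0.32, limma adjusted p = 0.00109).

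Msn, which encodes moesin, a linker of membrane proteins to actin, was the only 1 of 6 tail adaptors of podocalyxin and CD34 to pass. It had 70.3, 66.1 and 99.4 FPKM in control MLECs, 206, 207 and 206 with GL261 and 126, 217 and 182 with B16 (difference 1.27, SE 0.30, limma adjusted p = 0.0345). Ackr3, a scavenger of CXCL12 and a relative of Ackr1, had 0.678, 8.44 and 0.458 FPKM in control MLECs, 96.8, 37.7 and 33.7 with GL261 and 145, 48.3 and 214 with B16. It rose by 4.75 (SE 0.76, limma adjusted p = 0.00341), without overlap and in both tumors, where Ackr1 was above 0 in 1 of 3 B16 libraries.

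The remaining lists held no gene that passed in the joined comparison. Among 6 caveola coat genes the most abundant, Prkcdbp, differed by -0.02 (limma adjusted p = 0.98). Sdpr, another coat gene, passed as lower in GL261 (-1.84, SE 0.33, limma adjusted p = 0.0133) and differed by -0.91 in B16 (limma adjusted p = 0.223), and its difference between the tumors did not pass. In the joined comparison Sdpr differed by -1.37 (limma adjusted p = 0.0557). Cav1, named after its values were seen, differed by -1.25 (limma adjusted p = 0.0941). In both genes every tumor-associated library lay below every control library. Pacsin2 differed by 0.20, and the median of the list was -0.38. Of 5 Robo4 partners 2 were tested, the more abundant being Pxn (-0.77, limma adjusted p = 0.441). The other, Unc5b, was named after its values were seen: it had 21.5, 27 and 21.6 FPKM in control MLECs, 5.91, 2.79 and 3.44 with GL261 and 15.3, 3.18 and 0.5 with B16, all tumor-associated libraries below all controls, and its difference of -2.34 did not pass (SE 0.76, limma adjusted p = 0.112; exact permutation p = 0.0119). Slit2, Slit3 and Robo1 were listed at 0 in every control library. Cd164 was the only tested relative of the sialomucins (0.29, limma adjusted p = 0.716), with Podxl2, Glycam1 and Madcam1 listed at 0 in all 9 libraries. In the list with enzymes that modify the sugars of CD34-like mucins, 2 genes were tested, and the more abundant, Chst2, differed by 1.62 (limma adjusted p = 0.278). Fut7 and Chst4 were at 0 in all libraries. None of 4 other CD300 genes was high enough to be tested, and Cd300ld, the most abundant, did not exceed 12 FPKM.

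Outside the members, the tested gene whose log2(FPKM + 1) lay nearest over the 9 libraries was found for each by Euclidean distance, a description of these libraries without a test. For Cd34 it was Esam, an endothelial adhesion molecule, at a distance of 2.60, with 1.89, 34.1 and 3.57 FPKM in control MLECs, 400, 511 and 601 with GL261 and 335, 748 and 535 with B16. For Emcn it was Ppap2a, a lipid phosphatase gene, at 2.48. For Ackr1 the nearest was Irf7, an interferon regulatory factor, but at 6.36, and for Esm1 it was Tmem50b at 4.68, so that neither had a close neighbor. The nearest genes of the other members were Cox4i1 for Plvap (1.5), Set for Cd93 (1.37), Lysmd2 for Clec14a (3.53), Pitpna for Podxl (1.36), Mgst3 for Cd300lg (1.52) and Lamtor3 for Robo4 (1.01). Among the members themselves the closest 2 were Cd300lg and Robo4, at 1.99.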

How the data were processed

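Meningeal lymphatic endothelial cells of 9 libraries, 3 per group, were profiled by Smart-seq2. The authors aligned the reads to mouse mm9 with TopHat2 2.0.12 and deposited FPKM values from Cufflinks 2.2.1 for each gene, without read counts, per the labels. The gene annotation is not given in the sources used here. FPKM depends on the other RNAs in a library, and amplification from 10 cells makes zeros frequent.

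Groups came from the labels, which describe the replicates as biological pools. Values were set to log2(FPKM + 1) and tested with limma 3.58.1 (R 4.3.3, eBayes with trend) on the 9955 genes that reached 1 FPKM in 3 or more libraries, with Benjamini-Hochberg adjustment over all of them. GL261 and B16 were joined against control, and each comparison by tumor used a fit of 3 groups. Single genes were also tested by exact two-sided permutation of libraries (numpy 2.4.6), where 3 against 3 libraries cannot go below p = 0.1. The scripts were tested on simulated data. All 10 members were named. Each gene that passed in a partner list was named, or else the gene with the highest mean, and the nearest gene to each member. Aligned reads served only as a covariate. Same-numbered libraries did not deviate together (correlations -0.03 to 0.04 over 9 pairs). The members and lists were chosen with earlier results of these data known. No protein sequence was used. Ratios of mean FPKM without each library were added after seeing the data.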

Additional observations from a re-analysis of the deposited data

Results flagged for a closer look

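Among the 6 tumor-associated libraries, Cd93 was lowest in B16 replicate 1, at 58.9 FPKM beside 103 to 135 FPKM in the others. The gap to the next library was 0.68 of the whole range on the log2(FPKM + 1) scale, above Dixon's critical value of 0.625 for 6 samples. Chance alone flags about 1 in 20 groups, and 10 genes were looked at. Without B16 replicate 1 the Cd93 difference was 2.00 (limma adjusted p = 0.0965), beside 1.84 with it.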

How the results depend on the processing

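Cd34 and Emcn kept their calls in 17 of 18 alternatives for tumor-associated against control MLECs, Clec14a in 12 and Plvap in 7. Rescaling and quantile normalization moved the median of all tested genes from 0.20 to 0.05 and 0.03 and the split of calls from 289 higher and 102 lower to 209 and 120 and to 238 and 145. In GL261 the split moved from 257 and 90 to 173 and 110 and to 187 and 107. With a pseudocount of 0.1 the members' median was 2.67, and 2.46 in GL261 and 2.95 in B16. Without the low filter 2 members and 254 genes passed (391 with it), 218 in GL261 (347) and 135 in B16 (210), and without a trend 2 members passed. ROC power named 8 members. The covariate of aligned reads left 0 members and 9 genes, 0 and 2 in GL261 and 0 and 5 in B16. The covariate also gave a members' median of 0.98 in GL261 and -1.18 between tumors, and turned Robo4 to 0.48, Esm1 to -1.21 and Ackr1 to -1.12, Esm1 to -6.72 in GL261 and -2.50 in B16, and, between tumors, Cd34 to -1.16 and Emcn to -0.03. The cause was not tested. Between tumors quantile normalization called 2 genes and no trend 6.

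With the replicate number as a block, which the correlations of the libraries do not bear out as a pairing, 4 members and 303 genes passed, 4 and 230 in GL261, and 4 and 146 in B16, where Clec14a was the added member in both, and 0 members and 1 gene between tumors.

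Leaving out 1 library gave 2 to 4 members, 245 to 444 genes and medians of 1.72 to 2.56 for tumor-associated MLECs. It gave 2 to 5 members, 105 to 363 genes and 1.74 to 2.58 in GL261, and 3 to 4 members, 69 to 274 genes and 1.66 to 2.44 in B16. Between tumors it gave 0 to 1 members, 1 to 4 genes and -0.53 to 0.28. Esm1 then ranged from -0.18 to 3.27, from -0.61 to 2.90 in GL261, from -0.36 to 3.65 in B16 and from -2.06 to 0.96 between tumors. Cd300lg in B16 ranged from -0.84 to 0.32, and between tumors Cd34 ranged from -0.19 to 0.78, Podxl from -0.48 to 0.16 and Clec14a from -0.59 to 0.36. FPKM without counts sets no limit of detection.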
